A study of Homo sapiens
Mus musculus with 3 samples.

Results

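TALL-104 is an established human leukemic T-cell line with the features of a cytotoxic CD8+ T cell, and its wells were examined here in single-cell RNA-seq libraries made on the ICELL8 cx, where cells settle in the nanowells of a chip and the transcripts of each well receive a barcode of their own. The wells were chosen by their reads for 12 genes. A well qualified with at least 1000 reads, at least 200 genes and at least 90% of its reads on human genes, with at least 3 reads summed over GZMB, GZMA, PRF1, NKG7, GNLY and CST7, and with at least 3 times as many of these as reads of TCF7, LEF1, ITM2A, MAL, CD28 and CD1E. The first 6 genes mark cytotoxic cells and the other 6 mark Jurkat, the other human line of the mixture. By this rule 142 wells were TALL-104, out of 1574 human wells and 4360 wells past the filter on reads and genes.

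Each of the 3 libraries came from an equal mixture of TALL-104, Jurkat, and the mouse lines EL4 and IVA12. Both libraries of the group 3'DE, called DE1 and DE2 here, had been prepared with the kit's own protocol. The lone library of the group 3'DE-UMI, called UMI1, had its barcoding primers digested ahead of cDNA amplification, so that molecules could be counted by UMI (unique molecular identifier). The lines carried no treatment that differed between libraries. Per the study's methods, TALL-104 was grown with interleukin-2 and wells were picked by imaging as holding a single cell. DE2 and UMI1 were made from the same cell mixture and DE1 from another, so that library and mixture cannot be told apart between DE1 and the others.

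Cytotoxic T cells kill by emptying granules onto a target cell. Perforin (PRF1) forms pores in the target membrane, and granzymes, serine proteases such as granzyme A (GZMA) and granzyme B (GZMB), enter and trigger death. Granulysin (GNLY) is a membrane-disrupting granule protein, NKG7 is a membrane protein of the granules, and CST7 (cystatin F) inhibits the proteases that activate granzymes.

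The totals were 35581264 reads in DE1, 109702878 in DE2 and 44883618 in UMI1, and TALL-104 wells held 1.51%, 0.846% and 0.431% of them. The TALL-104 wells numbered 95 in DE1, 23 in DE2 and 24 in UMI1, against 383, 426 and 385 Jurkat wells chosen by the mirrored rule. A further 55, 35 and 148 human wells met neither rule. Kept wells of different chips could carry the same barcode. DE1 and DE2 shared 481 barcodes, DE1 and UMI1 449, and DE2 and UMI1 387. For 8, 3 and 0 of these the well was TALL-104 in both libraries. TALL-104 wells were 5.81% of kept wells in DE1, 1.61% in DE2 and 1.86% in UMI1. Whether reads or wells crossed between libraries was not tested. The wells of 1 library share their source, so the library was the unit of replication. Intervals given below are exact 95% binomial intervals over wells and cover counting error only, since reads are not independent molecules.

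The first question was what share of human wells the rule gave to a line put in at equal numbers. This share depends on reads per well and is not a capture rate. The paper mixed the lines by viable counts, and describes TALL-104 as smaller than the other lines and harder to grow. TALL-104 made up 17.8% (14.7 to 21.3) of human wells in DE1, 4.75% (3.04 to 7.05) in DE2 and 4.31% (2.78 to 6.34) in UMI1. The share in DE1 was above the intervals of both others, and the other two overlapped. Of all kept wells, TALL-104 made up 5.81%, 1.61% and 1.86%. The low share was found with both protocols, and the 3'DE libraries differed from each other more than DE2 differed from UMI1. No p is given for this share between protocols: with 2 libraries and 1, the smallest exact permutation p is 0.333. The share rested on GZMA, NKG7 and CST7: chosen on these alone, 90, 22 and 24 wells qualified, whereas on GZMB, PRF1 and GNLY alone the numbers were 19, 5 and 0.

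**Figure D1:**
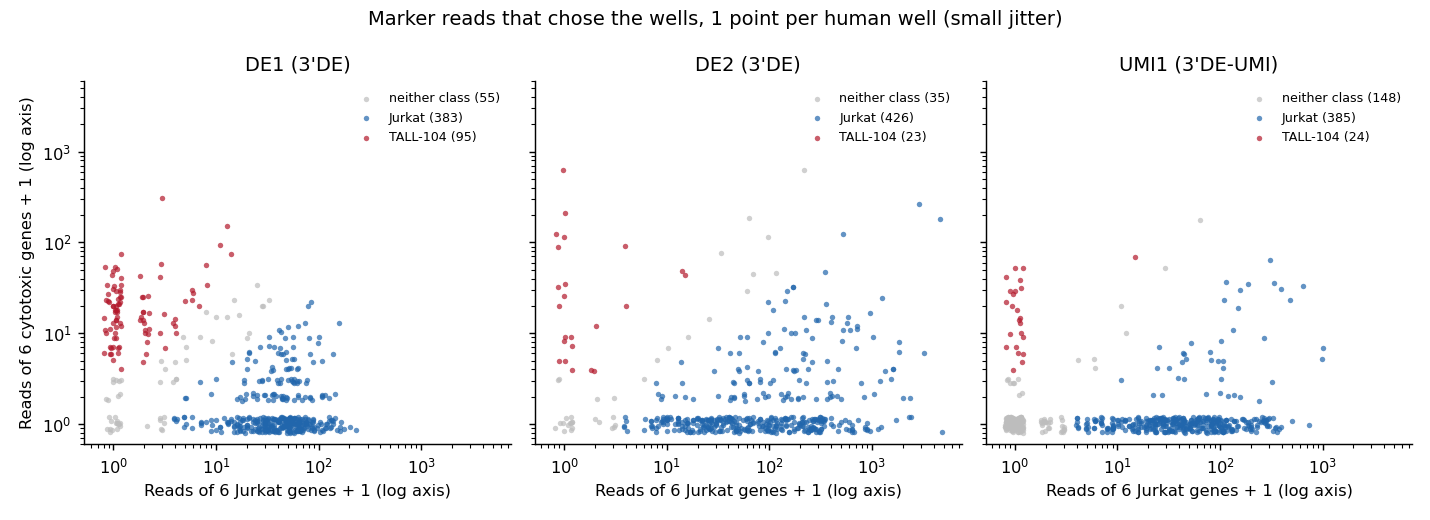
Reads summed over the 6 Jurkat genes (horizontal) and the 6 cytotoxic genes (vertical) in each human well, both plus 1 on log axes, for the 3 libraries; colours give the class and the numbers in parentheses the wells. The 95, 23 and 24 TALL-104 wells lie along the left edge by construction, and the 148 wells of neither class in UMI1 lie mostly near the origin.

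The members lay on a continuous range of marker reads. The median well held 16.0 cytotoxic reads in DE1, 19.0 in DE2 and 15.5 in UMI1, with highest values of 310, 622 and 69. Just inside the limit, 8, 5 and 4 wells had 3 to 5 cytotoxic reads. Just outside it, 9, 2 and 8 human wells had 1 or 2 cytotoxic reads and met the ratio. Another 65, 76 and 35 had 3 or more but too many reads of the Jurkat genes, and 45, 65 and 28 of those were Jurkat wells by the mirrored rule.

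GZMA gave most of the cytotoxic reads. All values for the 12 genes are descriptions, because these genes chose the wells, and CPM here is a gene's share of the human reads summed over the wells of a line and library, scaled to a fixed total as in any CPM. GZMA stood at 3599 CPM in DE1, 910 in DE2 and 2251 in UMI1. It held 79.3%, 55.0% and 82.3% of the reads of the 6 cytotoxic genes. A read was found in 91.6% (84.1 to 96.3), 56.5% (34.5 to 76.8) and 70.8% (48.9 to 87.4) of TALL-104 wells. The share was lowest in DE2, whose TALL-104 wells were the deepest. In Jurkat wells, which were several times deeper, it was 10.2%, 8.45% and 4.68%, and in mouse wells, which should lack human transcripts, 0.651%, 2.33% and 0.286%. The mouse wells had median depths of 23713.5, 31942 and 31408.5 reads. Thinned to 1000 reads per well, GZMA was found in 80.0%, 52.3% and 60.5% of TALL-104 wells and in 1.74%, 1.03% and 1.26% of Jurkat wells.

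The share of wells with NKG7 differed little between libraries. NKG7 stood at 351, 467 and 336 CPM and was read in 66.3% (55.9 to 75.7), 65.2% (42.7 to 83.6) and 58.3% (36.6 to 77.9) of TALL-104 wells. The intervals of the libraries overlapped. In Jurkat wells the shares were 9.14%, 6.81% and 3.90%. Its CPM in TALL-104 was 66.0, 262 and 111 times that in Jurkat.

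CST7 stood at 182, 145 and 149 CPM and was read in 43.2%, 60.9% and 25% of TALL-104 wells, against 9.40%, 14.1% and 2.34% of Jurkat wells. Its CPM was 27.0, 19.3 and 80.9 times that in Jurkat. Among the 6 cytotoxic genes, CST7 was the one read in most Jurkat wells of DE2.

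PRF1 was read in TALL-104 wells of both 3'DE libraries and in none of those of UMI1. It stood at 246 CPM in DE1 and 132 in DE2, with a read in 30.5% and 26.1% of wells. UMI1 held 0 reads in 24 wells, which allows a share of wells with a read of up to 12.5% when 3 wells are taken as the limit of a count of 0, and of up to 14.2% by the exact interval. Both limits lie below the shares of both 3'DE libraries, but within the interval of DE2 (10.2 to 48.4), and the TALL-104 wells of UMI1 together held only 187510 human reads, against 532578 and 922186.

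GZMB and GNLY, both defining genes of cytotoxic granules, were read in few or no TALL-104 wells. GZMB had 57 reads in DE1, or 107 CPM, where 8.42% of wells had a read, and 0 in the other libraries. The 383 Jurkat wells of DE1 held 0 reads of it, so against a floor of 3 reads TALL-104 was at least 349-fold higher. In DE2 the Jurkat wells held 5 reads of GZMB. GNLY had 29 reads, all in 1 well of DE1, and 0 in the other libraries. A count of 0 allows shares of up to 13.0% of wells in DE2 and 12.5% in UMI1 with the limit of 3 wells, and of up to 14.8% and 14.2% by the exact interval. The label of these wells as cytotoxic therefore rested mainly on 4 of 6 markers in DE1 and DE2 and on 3 of 6 in UMI1.

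**Figure D2:**
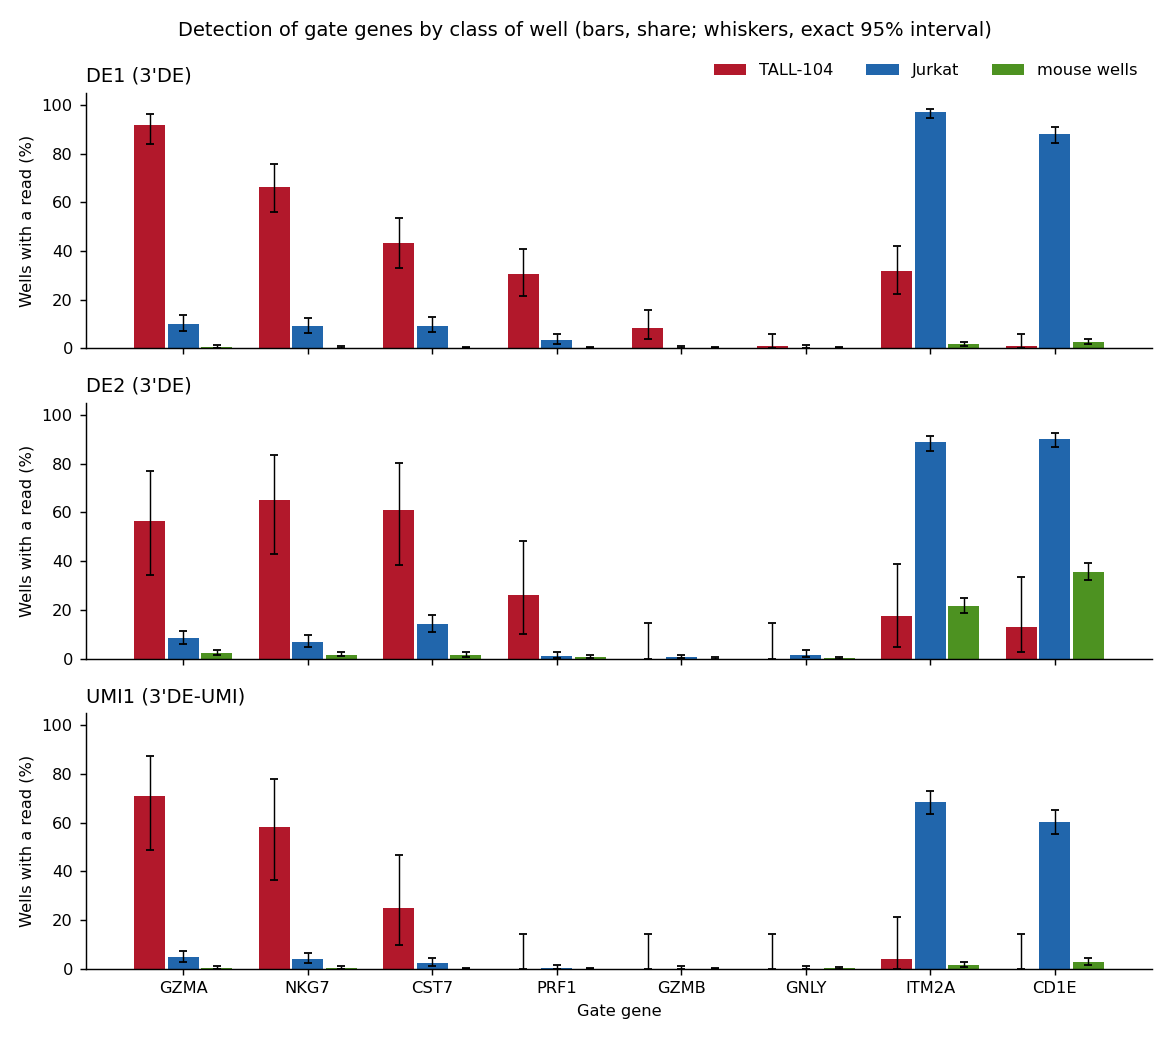
Share of wells with at least 1 read of 8 of the 12 genes that chose the wells, as bars with exact 95% intervals as whiskers, for TALL-104, Jurkat and mouse wells in each library. GZMA, NKG7 and CST7 stand above the Jurkat and mouse bars in every library. The TALL-104 bar of GNLY is at or near 0 in every library, and that of GZMB is at 8.42% in DE1 and at 0 in DE2 and UMI1. In DE1 the TALL-104 bar of ITM2A lies above the mouse bar and below the Jurkat bar, while that of CD1E lies below both.

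Single wells carried few of the 6 genes. In DE1, 17 wells had reads of 1 of them, 35 of 2, 32 of 3, 9 of 4 and 2 of 5. In DE2 the numbers were 8, 9, 2 and 4 for 1 to 4 genes, and in UMI1 14, 7 and 3 for 1 to 3 genes. No well had all 6. GZMA and NKG7 were both read in 56, 7 and 9 wells, GZMA without NKG7 in 31, 6 and 8, NKG7 without GZMA in 7, 8 and 5, and neither in 1, 2 and 2.

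Some cytotoxic genes that had chosen neither class were read more often in TALL-104 than in Jurkat wells. For this, both classes were chosen again on 3 of the 6 genes with the same 6 Jurkat genes, and the other 3 were read. In the 19 TALL-104 wells of DE1 chosen on GZMB, PRF1 and GNLY, GZMA was read in 16, or 84.2% (60.4 to 96.6), and NKG7 also in 16, against 65 (15.9%, 12.5 to 19.8) and 49 (interval 8.97 to 15.5%) of 410 Jurkat wells. In the 5 such wells of DE2, GZMA was read in 4, NKG7 in 3 and CST7 in 5, against 10.9%, 7.94% and 15.4% of 441 Jurkat wells. In the opposite direction, PRF1 was read in 26.7% (17.9 to 37.0) of the 90 wells of DE1 chosen on GZMA, NKG7 and CST7, against 4.15% (2.39 to 6.64) of 386 Jurkat wells. In DE2 it was 22.7% (7.82 to 45.4) of 22 wells against 1.17% (0.382 to 2.72) of 426. GZMB was read in 8 of the 90 wells of DE1 and in 0 of the 386 Jurkat wells. GNLY was read in none of the TALL-104 wells so chosen, GZMB in none of those of DE2, and none of the 3 genes in those of UMI1.

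The 6 genes that mark Jurkat were capped by the rule, so their low level in TALL-104 wells is no finding, but they were not equally low. TCF7 and LEF1, transcription factors of early T cells, had 6 and 7 reads in DE1, 1 and 3 in DE2, and 0 in UMI1. CD28, a costimulatory receptor, had 9, 0 and 0 reads, and MAL, a membrane proteolipid of T cells, had 0 in every library. ITM2A, a membrane protein induced as thymocytes mature, had 93, 29 and 14 reads, which is 80.2%, 80.6% and 100% of the reads of the 6 genes.

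ITM2A was read in TALL-104 wells almost without CD1E, a lipid-antigen carrier of immature T cells that in Jurkat was read with it. TALL-104 wells held 1, 3 and 0 reads of CD1E beside the 93, 29 and 14 of ITM2A, or 0.0108, 0.103 and 0 reads of CD1E per read of ITM2A. In Jurkat wells the ratio was 1.78, 1.74 and 1.10, and in mouse wells, where any human read is stray, 3.15, 1.60 and 2.07. The ITM2A reads of TALL-104 lay in 30 of 95 wells in DE1, with at most 13 reads in a well, in 4 of 23 wells in DE2 and in 1 of 24 in UMI1, where the 14 reads came from 1 UMI. As a share of wells this was 31.6%, 17.4% and 4.17%, against 1.63%, 21.6% and 1.71% of mouse wells, which were deeper. Thinned to 1000 reads per well the shares were 13.2%, 6.98% and 3.89% of TALL-104 wells and 0.101%, 0.995% and 0.158% of mouse wells, so the order in DE2 turned with depth. ITM2A and CD1E both helped to choose the wells of each human line. Wells with more ITM2A or CD1E than the rule allows are not among the members. The low CD1E reads and the ratio are therefore descriptions of the chosen wells. Whether the ITM2A reads came from TALL-104 itself was not tested.

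TALL-104 wells were shallow beside Jurkat wells of the same chip. Their median depth was 4740 reads (lowest 1366, highest 29738) in DE1, 10680 (1049 to 305842) in DE2 and 5679 (3029 to 36384) in UMI1. Jurkat wells had medians of 26623, 41964 and 22071. Jurkat was 5.62, 3.93 and 3.89 times deeper, so TALL-104 was lower in 3 of 3 libraries, by a mean log2 difference of -2.14 ± 0.302 (SD, n = 3). The two-sided exact sign-flip permutation test gave p = 0.25, the smallest p that 3 libraries allow. A lower RNA content of the cell and a lower yield of the reaction cannot be told apart in these counts.

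The UMI table of UMI1 gave the same order. TALL-104 wells held a median of 431 UMIs (lowest 274, highest 2842) and Jurkat wells 1815. Reads per UMI were 12.7 ± 1.64 (SD over 24 wells) in TALL-104 and 12.9 ± 1.62 (SD over 385 wells) in Jurkat, a difference smaller than the spread between wells. The 422 reads of GZMA in TALL-104 wells came from 25 UMIs, the 63 of NKG7 from 16 and the 28 of CST7 from 7. GZMA thus had 16.9 reads per UMI and NKG7 3.94. A UMI of GZMA was found in 16 TALL-104 wells and a read in 17.

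Fewer genes were found per TALL-104 well, also at equal numbers of reads. The median was 701 human genes in DE1, 718 in DE2 and 299.5 in UMI1, against 2645, 2282 and 910 in Jurkat. At 1000 reads per well, computed as the exact mean over all ways to draw them, TALL-104 gave 405, 339 and 218 genes and Jurkat 604, 560 and 433. At 2000 reads, which 91, 20 and 24 TALL-104 wells reached, the values were 545, 464 and 252 against 955, 860 and 575. Equal reads are not equal molecules: in UMI1 the median well held 431 UMIs in TALL-104 and 1815 in Jurkat. The part of molecule number in the gap at equal reads was not tested. The difference in the log2 number of genes at 1000 reads was -0.77 ± 0.210 (SD, n = 3), lower in 3 of 3 libraries, with an exact sign-flip permutation p of 0.25. Reads summed over wells were also more concentrated: the 10 genes with most reads held 18.4%, 28.6% and 15.6% of the TALL-104 reads and 9.32%, 11.3% and 7.88% of the Jurkat reads. Single wells weighed more in the TALL-104 sums. The 3 deepest wells held 9.80%, 70.7% and 36.5% of the human reads in TALL-104 and 1.72%, 11.5% and 6.59% in Jurkat.

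**Figure D3:**
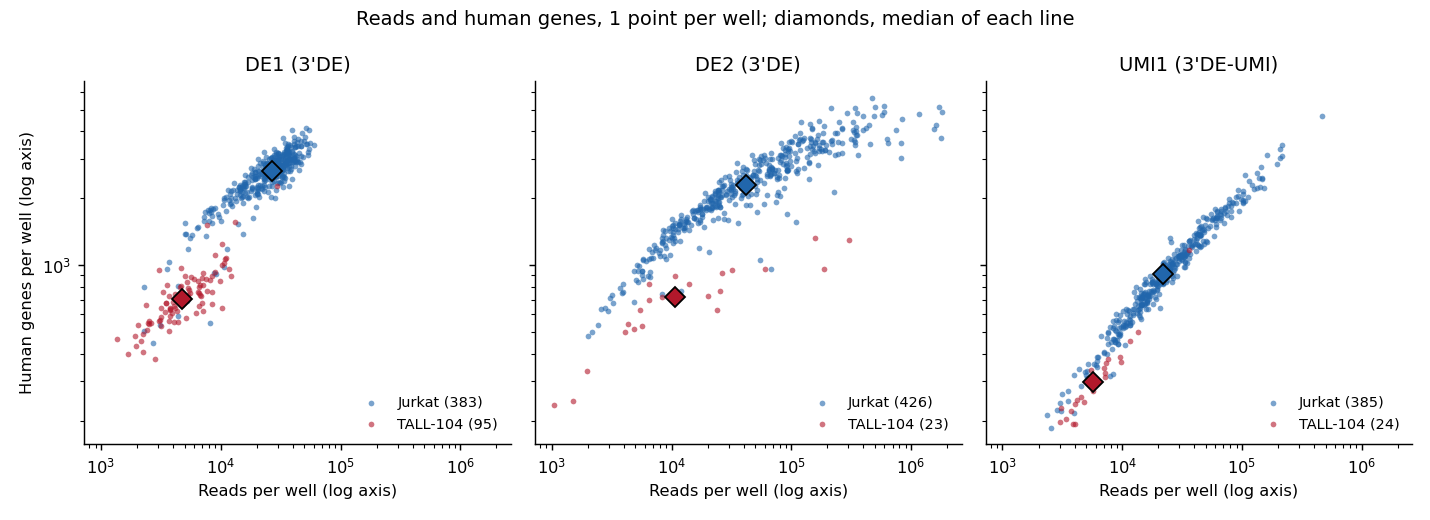
Reads (horizontal) and human genes (vertical) of every TALL-104 and Jurkat well on log axes, with diamonds at the medians of each line, for the 3 libraries. The TALL-104 medians of 4740, 10680 and 5679 reads lie to the left of the Jurkat medians, and in DE2 the TALL-104 wells lie below the Jurkat wells of like depth.

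Pooling equal numbers of wells did not close the gap in these counts. Jurkat wells were 5.62, 3.93 and 3.89 times deeper by the median, and pools of equal reads were not compared. The expected number of human genes in 20 TALL-104 wells was 5314 in DE1, 5410 in DE2 and 3239 in UMI1, against 8935, 9406 and 6089 in 20 Jurkat wells. All TALL-104 wells together gave 9434, 5775 and 3604 genes, and all Jurkat wells 15379, 16572 and 13536. The TALL-104 total was above the value for 20 Jurkat wells in DE1 and below it in DE2 and UMI1. Only 216, 219 and 111 genes were read in at least 50% of the TALL-104 wells of their library, against 1755, 1440 and 387 for Jurkat.

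The second question was whether the 3'DE-UMI protocol measured TALL-104 as the 3'DE protocol did. At full depth UMI1 gave fewer genes per TALL-104 well than both 3'DE libraries, by 1.24 on the log2 scale (difference -1.24, SD of the 3'DE libraries 0.0244). At 1000 reads the difference was -0.77 (SD 0.182) and at 2000 reads -0.998 (SD 0.165). The distance was larger than the spread of the 3'DE libraries in each case, with n = 2 against 1 and no test. In Jurkat wells it was -1.43 (SD 0.151) at full depth and -0.43 (SD 0.0762) at 1000 reads. Equal reads need not be equal molecules between the protocols, and UMI counts were available for UMI1 only. Without the minimum of 200 genes UMI1 had 33 TALL-104 wells in place of 24, and DE1 and DE2 gained none. Mouse reads in TALL-104 wells had medians of 0.210%, 2.46% and 1.38%, against 0.248%, 4.21% and 1.62% in Jurkat wells. The third quartiles lay further apart, at 0.437%, 3.29% and 6.87% in TALL-104 and 6.67%, 6.04% and 2.85% in Jurkat. The source of these mouse reads was not tested.

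Mouse reads moved with the TALL-104 share of human wells in DE1. Among human wells with under 1% mouse reads, 24.6% (20.2 to 29.4) were TALL-104, and with 1% or more 4.47% (1.95 to 8.62). In DE2 the values were 9.33% (3.84 to 18.3) and 3.91% (2.25 to 6.28), and in UMI1 4.74% and 4%. The part of mouse reads in the share of TALL-104 wells was not tested.

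Across genes, TALL-104 sums were less alike between libraries than Jurkat sums. On log2(CPM + 1) over 9303 genes outside the 12, Pearson's r between TALL-104 sums was 0.623 for the 3'DE libraries and 0.497 and 0.432 for UMI1 with DE1 and DE2. The Jurkat sums gave 0.949, 0.845 and 0.841. These are correlations across genes, which are not independent replicates, and the lines differ in depth. Single wells weighed heavily in the TALL-104 sums. The deepest well held 5.04% of human reads in DE1, 33.1% in DE2 and 19.1% in UMI1, and the 3 deepest of DE2 held 70.7%.

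A comparison of protocols gene by gene on these sums had 1 residual degree of freedom. With edgeR's quasi-likelihood test and Benjamini-Hochberg adjustment, 3 of 5569 genes outside the 12 passed, or 0.0539%, and all 3 were lower in UMI1. With RLE size factors 0 passed, while 605 had an unadjusted p under 0.05, and DESeq2 called 188. Without the deepest well of each sum the count was 11, so none of the genes is named.

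The third question was whether the wells chosen on 12 genes were nearer to TALL-104 than to Jurkat in the rest of the transcriptome. Each human well was scored with the genes outside the 12: for each read, the log2 ratio of its gene's mean share in TALL-104 wells over that in Jurkat wells of the other 2 libraries, averaged over the reads of the well. A score above 0 is nearer to TALL-104 than to Jurkat. The score cannot show whether the wells form 1 population, because it places each well only between the 2 lines. The score used 5967, 5835 and 6125 genes, none of which had chosen a well, and no library was scored on its own wells. Whether reads crossed between libraries was not tested, so the libraries may not be fully independent in this score. The median of TALL-104 wells was 0.57 in DE1, 0.71 in DE2 and 0.54 in UMI1, and that of Jurkat wells -0.78, -0.59 and -0.69.

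Nearly all wells fell on the side of their class. Above 0 lay 92 of 95 TALL-104 wells in DE1 (96.8%, 91.0 to 99.3), 23 of 23 in DE2 (100%, 85.2 to 100) and 21 of 24 in UMI1 (87.5%, 67.6 to 97.3). Of Jurkat wells 3, 2 and 1 did, or 0.783%, 0.469% and 0.260%. Among shallow Jurkat wells, with under 10000 reads, 3 of 36, 1 of 59 and 1 of 62 lay above 0. TALL-104 wells without a read of GZMA were on the TALL-104 side in 8 of 8, 10 of 10 and 6 of 7 cases.

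**Figure D4:**
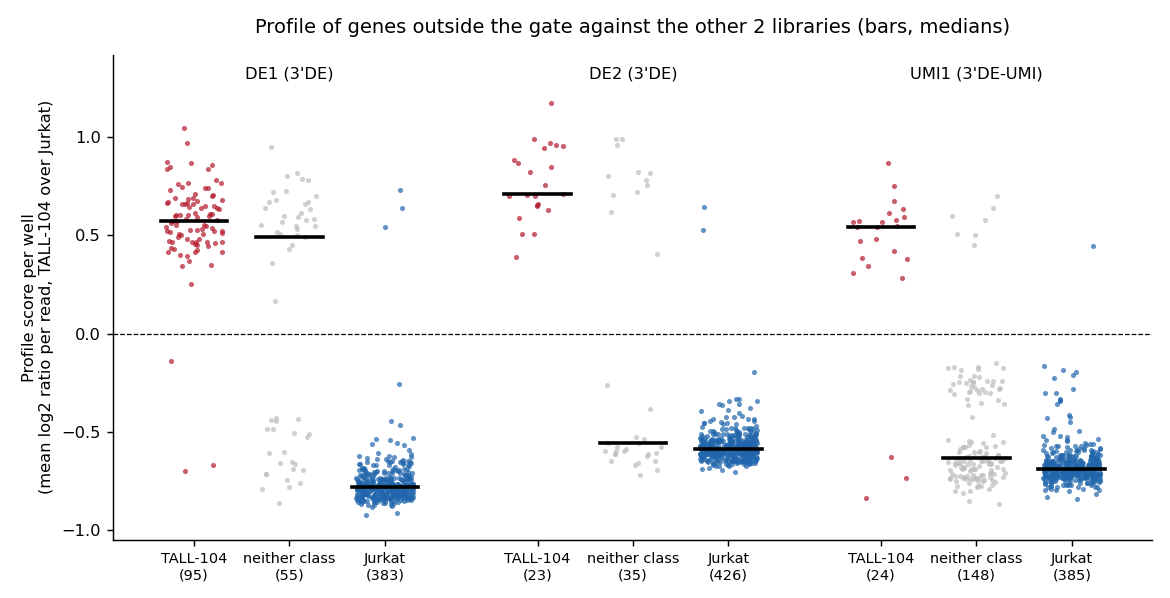
Profile score of every human well (vertical, mean log2 ratio per read) for TALL-104 wells, wells of neither class and Jurkat wells in each library, with medians as bars and a dashed line at 0. TALL-104 medians of 0.57, 0.71 and 0.54 face Jurkat medians of -0.78, -0.59 and -0.69, and the wells of neither class fall into an upper and a lower band.

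The 6 TALL-104 wells on the Jurkat side had cytotoxic reads of GZMA or CST7 and none of NKG7 or PRF1. In DE1 they held 310, 150 and 19 reads of GZMA at depths of 13208, 29738 and 7684 reads, and no other cytotoxic gene. The first of these had the most GZMA reads of any TALL-104 well of its library and a score of -0.14, and the second was the deepest TALL-104 well of its library, with 9.74% mouse reads. In UMI1 they held 41, 15 and 0 reads of GZMA and 0, 4 and 6 of CST7, and the well with 41 was the deepest TALL-104 well of its library, with 36384 reads.

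TALL-104 and Jurkat differed in many genes outside the 12. Reads were summed per line and library, and edgeR's quasi-likelihood test with the library as a block was fitted to the 6 sums. Of 9303 human genes tested, 145 passed an adjusted p of 0.05, or 1.56%. Of these, 75 were higher in TALL-104 (0.806% of genes tested) and 70 lower (0.752%). The median log2 difference over all genes tested was -1.85. It was 7.92 for the genes called higher and -3.65 for those called lower. The lines did not overlap in CPM for all 75 genes called higher and for 51 of the 70 called lower. Over all genes tested they did not overlap for 2987 (32.1%), which were 329 of the 1648 with a fitted difference above 0 and 2658 of the 7655 below it. Both counts come from the contrast that made the calls.

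The split of the calls by direction depended on the scaling and on other settings. With RLE size factors the median of all genes was -1.50 and 82 genes were called higher and 23 lower. With Jurkat reads thinned to the depth of the TALL-104 sum of the same library, only 4836 genes passed the filter, against 9303. Over this smaller set the median was -0.89, and 93 genes were called higher and 40 lower. Without DE1, which held 95 of the 142 wells, 18 genes passed. Without the library as a block 26 passed, all of them higher and 0 lower, with 1994 genes at an unadjusted p under 0.05 in either direction and a median of -0.88. None of the 145 calls turned its direction in an alternative in which it was tested.

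**Figure D5:**
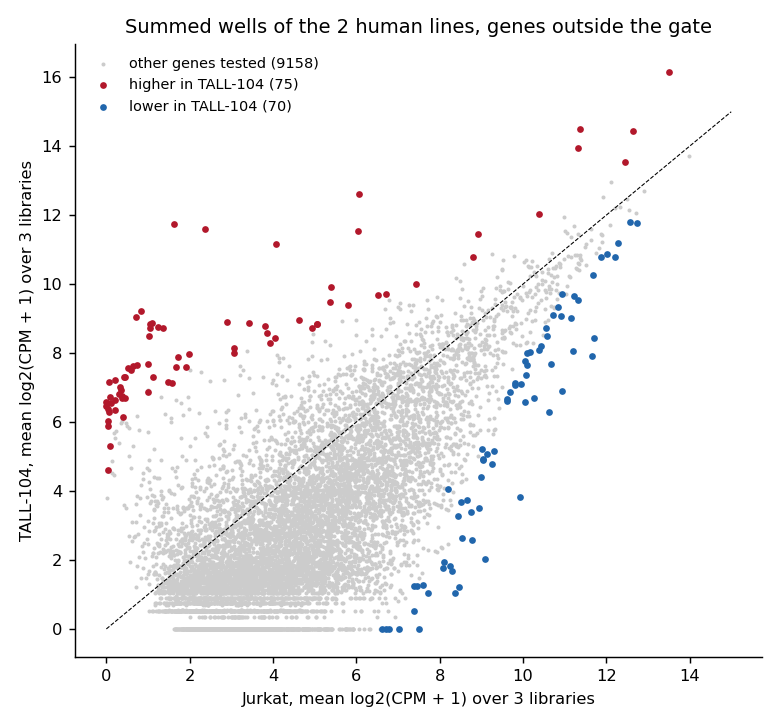
Mean log2(CPM + 1) over 3 libraries of the genes outside the 12 in summed Jurkat (horizontal) and TALL-104 wells (vertical); the dashed line marks equal values. The 75 genes higher in TALL-104 lie above the line and many are near 0 in Jurkat, and the 70 lower genes lie below it; with RLE size factors the split was 82 and 23.

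The files gave identifiers without gene symbols, so only the 2 genes with the largest fitted rise and the 2 with the largest fall, among genes at 100 CPM or more in each library of the higher line, are given. ENSG00000111796 stood at 3571, 4212 and 2709 CPM in TALL-104 and at 8.90, 1.54 and 0.148 in Jurkat. It was read in 86.3% (77.7 to 92.5), 82.6% (61.2 to 95) and 50% (29.1 to 70.9) of TALL-104 wells and in 1.31%, 1.64% and 0.260% of Jurkat wells. Its share of TALL-104 wells was above that of GZMA in DE2 and below it in DE1 and UMI1, and its share of Jurkat wells was below that of GZMA in all 3 libraries. Its log2 difference was 11.19 ± 0.655 (SE), with an edgeR adjusted p of 1.18e-61. That SE and p used a spread pooled largely over genes, in a fit with 2 residual degrees of freedom. The lowest fitted difference of ENSG00000111796 over the alternatives was 4.58 (edgeR adjusted p = 0.080, in the 3'DE wells chosen on GZMB, PRF1 and GNLY).

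ENSG00000109452 was higher in TALL-104 in fewer wells. It stood at 103, 163 and 357 CPM in TALL-104, with a read in 16.8%, 26.1% and 16.7% of wells. In Jurkat it had 0, 1 and 32 reads, and against the floor of 3 reads it was at least 336-fold higher in TALL-104 of DE1. The edgeR adjusted p was 0.0011, and in 4 alternatives it lay between 0.0759 and 0.811.

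ENSG00000121211 was not read in any of the 142 TALL-104 wells, and stood at 145, 173 and 230 CPM in Jurkat, with a read in 56.9%, 52.1% and 32.5% of Jurkat wells. Against a floor of 3 reads per library, TALL-104 was at least 25.8-fold, 53.2-fold and 14.4-fold lower (edgeR adjusted p = 0.00497). ENSG00000066279 had 1, 0 and 0 reads in TALL-104 and stood at 179, 205 and 126 CPM in Jurkat. TALL-104 was at least 63.1-fold lower in DE2 and at least 7.87-fold lower in UMI1 (edgeR adjusted p = 0.0217). In 3 and 6 alternatives, respectively, these genes did not pass, with an unchanged direction.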

How the data were processed

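The deposited tables held raw counts: for each library the authors gave reads per gene and well barcode, aligned with STAR 2.7.0b inside mappa to a combined hg19 and mm10 reference (Cell Ranger 1.2.0), and for UMI1 also UMI counts from Drop-seq tools with STAR 2.4.2a, per the submitters' processing notes and the study's methods. The methods state that reads were downsampled; whether these tables hold downsampled reads is not given in the sources used here. All values were whole numbers.

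The wells and gene lists were chosen with earlier results of these data known. Jurkat wells had at least 3 reads of their 6 genes and at least 3 times the cytotoxic reads. Mixed-species wells fell to the 90% limit, and no doublet caller was run. The symbols of the 12 genes are those given with the rule for choosing wells. The tables pair no identifier with a symbol and 0 identifiers matched the reference table, so planned lists of named genes, the marker check outside the 12 and the mitochondrial and ribosomal shares were not run.

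Reads were summed per line and library over human genes and tested in edgeR 4.0.16 (filterByExpr, TMM, quasi-likelihood F-test, two-sided, Benjamini-Hochberg, threshold 0.05), with the 12 genes left out. The library was a block for the lines, since both came from the same chip: their deviations from the line means correlated at 0.23, 0.17 and 0.33 in the 3 libraries. The highest correlation with another library was 0.10, 0.13 and -0.22, so the matched value stood out little in DE2. The edgeR fits were checked on simulated counts with known changes and less spread than these sums. That check does not show how the tests behave at the spread of these data. The profile score used genes at 20 CPM or more in the mean of either line and a pseudocount of 10 CPM. The rule for named genes asked for an adjusted p under 0.05, the same direction in every library and 100 CPM in each library of the higher line, of which 2 in each direction are given. DESeq2 1.42.0, RLE factors, other filters, gates and left-out libraries were alternatives. Whether libraries came from separate cultures is known only from the mixtures, so the spread between these libraries may be technical. In the comparison of lines, the edgeR p-values and SEs rest on a spread pooled largely over genes, with 2 residual degrees of freedom. They do not measure each gene's own spread between libraries.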

Additional observations from a re-analysis of the deposited data

Results flagged for a closer look

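Some wells outside every comparison had a profile nearer to TALL-104 than to Jurkat, which is all that a score above 0 states. Of the human wells that met neither rule, 58.2% (32 of 55, exact 95% interval 44.1 to 71.3) in DE1, 34.3% (12 of 35, 19.1 to 52.2) in DE2 and 4.73% (7 of 148, 1.92 to 9.50) in UMI1 had a profile score above 0, which lay above the shares in Jurkat wells of 0.783%, 0.469% and 0.260% and their upper bounds of 2.27%, 1.69% and 1.44%. They were drawn to attention because no comparison used them. Of these wells 10, 5 and 3 had no cytotoxic read, 8, 2 and 2 had 1 or 2, and 14, 5 and 2 had 3 or more but too many reads of the Jurkat genes. They held 92, 390 and 64 reads of ITM2A and 0, 1 and 0 of CD1E, which are values of genes that chose the classes. Counted with the TALL-104 wells, they would bring its share of human wells to 23.8%, 7.23% and 5.57%.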

How the results depend on the processing

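Shares of human wells moved beyond their intervals as follows. With at least 5000 reads per well, TALL-104 made up 9.52% in DE1, and with at least 95% human reads 24.5%. With at least 10 cytotoxic reads the shares were 13.5%, 2.89% and 2.69%, and on GZMB, PRF1 and GNLY alone 3.56%, 1.03% and 0%. On the UMI table UMI1 gave 1.26% (7 wells). DE1 had the highest share under every alternative with all 3 libraries.

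The log2 difference in genes per well between UMI1 and the mean of DE1 and DE2 was -0.77 at 1000 reads, -0.998 at 2000, -1.18 with at least 5000 reads and -1.21 with at least 10 cytotoxic reads, and -1.26 to -1.23 without DE1 or DE2. The depth difference between the lines moved by less than its SD under its alternatives.

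Detection fell on thinning to 1000 reads, to 80.0% for GZMA in DE1 and to 27.7%, 30.6% and 30.2% for NKG7. In wells chosen on GZMB, PRF1 and GNLY it was 84.2% for NKG7 in DE1 and 80.0% for GZMA in DE2.

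Of the comparison of lines, 1738 genes passed in DESeq2 (323 higher, 1415 lower), 26 with no replicate block (26 higher, 0 lower), 73 with at least 10 cytotoxic reads, 81 with at least 5000 reads per well, 13 on GZMB, PRF1 and GNLY in the 3'DE libraries, and 223 with the UMI table. Leaving out 1 library gave 18 to 134, with 2 lower calls among the 18 without DE1. Without the deepest well of each sum, an alternative chosen after seeing the data, 195 passed, including 137 of the 145. For these counts the cause was not tested, other than fewer wells or samples where the alternative removes them.

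Of the comparison of protocols, 188 genes passed in DESeq2, 0 with RLE factors, 1 with no filter, 5 with at least 10 cytotoxic reads, 5 with the UMI table and 11 without the deepest wells. No paired analysis was possible because the protocols share fewer than 2 replicate numbers, and these were given in accession order. Leaving out a 3'DE library there leaves no residual degree of freedom and was not run, nor were the planned mitochondrial and ribosomal shares. Both other settings of the profile score, also chosen after seeing the data, left its shares within their intervals. At these depths a gene in 0 wells cannot be called absent.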
